A study of Mus musculus with 14 samples.

Results

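miR-685 carries the name of a mouse microRNA and was measured by 1 of the 375 microRNA assays of a TaqMan rodent array card. It was chosen by its levels in these same hearts, as the assay with the largest rise in rejecting allogeneic over syngeneic grafts, so its heart values are given as a description, with no test. The assay was found by its name, mmu-miR-685, on 14 of 14 arrays. No reference sequence was matched to that name, so what the assay amplifies was not checked. MicroRNAs are short RNAs that repress messenger RNAs by pairing mainly through the seed, the bases near their 5′ end. In a heart graft between unrelated mouse strains the recipient's T cells and macrophages enter the muscle and destroy it, whereas a graft within 1 inbred strain is accepted. RNA of the whole graft therefore mixes that of heart cells with that of infiltrating blood cells.

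Allogeneic grafts were BALB/c hearts placed in C57BL/6 recipients, which the labels record as rejecting. In syngeneic grafts donor and recipient were both C57BL/6, recorded as not rejecting, so the strain of the heart changed together with the group. Whole hearts were taken on day 7 (3 allogeneic and 3 syngeneic arrays) and graft-infiltrating lymphocytes (GIL) on day 5 (3 and 3 arrays). The controls, not transplanted, were 1 array of normal BALB/c hearts and 1 of PBMC, mononuclear cells from the blood of C57BL/6 mice. Grafts were heterotopic, that is, placed elsewhere in a recipient that kept its own heart, and mice of all groups were 8 to 10 weeks old. Each array held the pooled RNA of 3 animals, so n counts pools, and the lone normal arrays show no spread of their own.

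Readings are threshold cycles (Ct), the PCR cycle at which a well becomes positive. Abundant RNA comes up early, and a step of 1 cycle corresponds to about 1 log2 unit. A level here is the mean Ct of a reference set minus the Ct of the assay. The reference set is those microRNA assays that had a reading on 7 of 7 arrays in the table (210 for hearts and 137 for GIL with PBMC), and wells at Ct 35 or later count as not detected. The arrays detected 161 to 260 of the 375 assays. Allogeneic GIL pool 3 stood apart, with 161 detected and a mean reference Ct of 28.0, against 23.2 to 25.8 on the other 6 arrays of its table. The main GIL differences of miR-685 are therefore also given without it, on the same reference set. Group means, correlations and comparisons of GIL with whole hearts include it.

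The microRNAs whose levels followed miR-685 most closely over both tables, described further on, were miR-182, miR-183, miR-147, miR-155 and miR-362-3p. RefSeq mature sequences (assembly GRCm38.p6) were matched for 4 of the 6 names, those other than miR-685 and miR-147, and are shown because these microRNAs were chosen by their correlation with miR-685. The seed, bases 2 to 8, is in capitals. For the names without an arm, the 5p arm that the older name stands for is given.
miR-182-5p: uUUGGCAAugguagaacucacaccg
miR-183-5p: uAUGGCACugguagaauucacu
miR-155-5p: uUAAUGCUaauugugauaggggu
miR-362-3p: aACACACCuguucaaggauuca
They lie at chr6:30165962-30165986, chr6:30169711-30169732, chr16:84714143-84714165 and chrX:7241984-7242005, on the minus, minus, plus and minus strands. The 4 seeds are all different.

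In whole hearts the Ct of miR-685 was 17.4, 15.8 and 17.7 in allogeneic pools 1 to 3, against 23.0, 25.0 and 24.7 in syngeneic pools 1 to 3. In normal hearts the well was undetermined and was marked by the instrument software. The latest allogeneic well thus came up more than 5 cycles before the earliest syngeneic well, on cards whose mean reference Ct lay between 22.4 and 23.9. As levels, the allogeneic pools stood at 5.81, 7.32 and 5.79 and the syngeneic pools at -0.61, -1.61 and -0.91. The groups did not overlap and were 6.40 log2 units apart at their nearest values. Of the 238 assays tested in this comparison, 26.5% likewise had all allogeneic above all syngeneic values, but this is the comparison in which miR-685 was chosen.

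**Figure D1:**
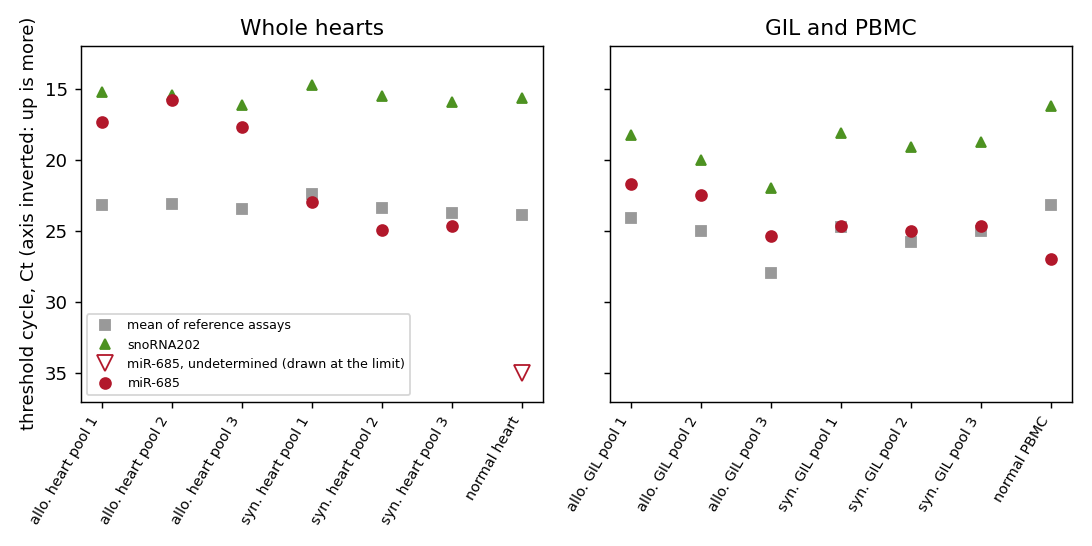
Threshold cycle (axis inverted, so that up is more) of miR-685, of the control snoRNA202 and of the mean of the reference assays on each array, hearts on the left and GIL with PBMC on the right. In hearts miR-685 lies at 15.8 to 17.7 in allogeneic pools, against 23.0 to 25.0 in syngeneic pools, while the reference stayed between 22.4 and 23.9; the open triangle is the undetermined well of normal hearts, drawn at the limit of 35.

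The mean difference between allogeneic and syngeneic hearts was 7.35 ± 0.49 log2 units (SE of the limma fit, 3 pools in each group), or 163-fold. Below it among the assays tested came miR-682 at 5.90 ± 2.46, miR-501-3p at 4.80 ± 2.96 and miR-451, an erythroid microRNA, at 3.99 ± 0.71. The wide errors of miR-682 and miR-501-3p set them apart from the other 2. Compared on a single run day, allogeneic pool 1 stood 6.42 log2 units above syngeneic pool 1, and on another day allogeneic pool 3 stood 7.40 above syngeneic pool 2. Leaving out any 1 pool gave 6.84 to 7.61. The pools of 1 group varied more in miR-685 than in most assays, with a pooled SD of 0.72 log2 units against a median of 0.35 over the 210 reference assays, and allogeneic pool 2 was the highest.

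Syngeneic grafts also stood far above normal hearts. miR-685 was detected on 3 of 3 syngeneic arrays and not on the array of normal hearts, so the difference of 10.09 log2 units is a lower bound, set by the limit of Ct 35. For allogeneic hearts the bound was 17.44 log2 units. All 3 syngeneic arrays were above the normal array in 38.8% of the assays tested, and all 3 allogeneic arrays in 42.3%. The bounds follow the limit, being 7.09 and 14.44 with the limit at Ct 32. Scaled to miR-142-3p, with the limit still at Ct 35, they were 7.50 and 13.21. Transplantation, the days after surgery and the run day differ together from the normal array. Rejection differs too for allogeneic grafts, and the strain of the heart for syngeneic grafts. These cannot be told apart.

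The relative quantity deposited by the authors takes the undetermined well of normal hearts as Ct 40. On that scale of the authors' deposited table miR-685 read 4845230, 17281196 and 7545271 in allogeneic hearts and 29919.97 to 69573.69 in syngeneic hearts. These numbers are ratios to a well with no reading, so their size depends on the cycle assigned to that well, and the ratio between the grafts does not. For GIL, where PBMC had a reading, the authors' deposited table gives 159 to 318 in allogeneic pools and 18.8 to 29.6 in syngeneic pools, with PBMC at 1.

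GIL were measured on separate cards and pools, which had no part in the choice of miR-685 as the largest heart rise, though their result was known when it was chosen. The Ct was 21.7, 22.5 and 25.4 in allogeneic pools 1 to 3, against 24.7, 25.0 and 24.7 in syngeneic pools 1 to 3. Uncorrected values therefore overlap, and allogeneic pool 3, with the latest miR-685 well of the GIL, also had the latest mean reference Ct. As levels the allogeneic pools stood at 2.42, 2.51 and 2.58 and the syngeneic pools at 0.04, 0.74 and 0.35. The groups then lay 1.67 log2 units apart at their nearest values, and 24.4% of the 201 assays tested had all allogeneic above all syngeneic values. The allogeneic SD was 0.08 log2 units although the Ct of the same 3 wells spanned over 3 cycles.

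miR-685 rose in allogeneic GIL by 2.12 ± 0.26 log2 units over syngeneic GIL (4.36-fold, 3 pools in each group, higher in 3 of 3 pools, limma adjusted p = 0.00548). It was among the 25 assays called higher at an adjusted p under 0.05, 12.4% of the 201 tested, and 13th of 201 by size. Without allogeneic pool 3 the difference was 2.09 ± 0.29 (limma adjusted p = 0.00596). Scaled to the control RNAs MammU6, snoRNA202, or snoRNA135 with snoRNA202, it was 2.94, 3.01 and 2.77. These scalings move all assays of the table up by 0.65 to 0.89. MammU6, snoRNA135 and snoRNA202 stood lower in allogeneic than in syngeneic GIL (-0.82, -0.41 and -0.89). The controls U87 and Y1 stood higher (0.11 and 0.33), and scaling to them was not tried. Each run day held 1 group of GIL only. Run day therefore cannot be separated from the group. With run day as a random block the difference was 2.12 (limma adjusted p = 0.00522, and 0.00788 without allogeneic pool 3). That fit cannot remove a shift between days, since no day held both groups. Whether the rise is as large in GIL as in hearts was not tested, since the heart value chose the microRNA.

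The blood cell microRNA miR-142-3p also stood higher in allogeneic than in syngeneic samples. It rose by 1.64 ± 0.25 log2 units in allogeneic hearts (limma adjusted p = 0.00457) and by 1.60 ± 0.34 in allogeneic GIL (limma adjusted p = 0.0168). With miR-685 scaled to miR-142-3p of the same array, allogeneic hearts stood at -1.18, 0.58 and -1.02 log2 units and syngeneic hearts at -6.01, -7.02 and -5.72, a difference of 5.71. On the same scale allogeneic GIL stood at -2.56, -2.54 and -2.98 and syngeneic GIL at -4.09, -2.41 and -3.15. The hearts stayed apart, whereas the GIL groups overlapped. The GIL difference was then 0.53 ± 0.49 (limma adjusted p = 0.344), and 0.67 ± 0.57 without allogeneic pool 3 (limma adjusted p = 0.329), so the call did not hold on this scale, which was chosen after the data were seen. In whole tissue a change in the number of cells of a type and a change of RNA per cell cannot be told apart.

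**Figure D2:**
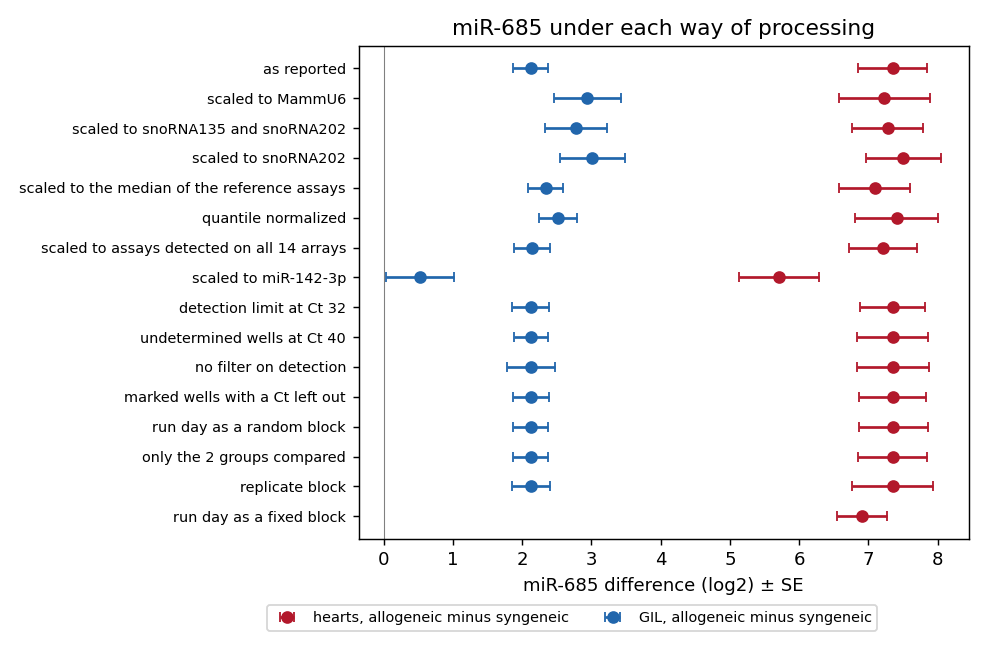
Difference of miR-685 between allogeneic and syngeneic samples (log2, points, with bars for the SE) under each way of processing, for hearts and GIL. Left-out pools aside, the heart difference stayed between 5.71 and 7.51 and the GIL difference between 0.53 and 3.01, both lowest when scaled to miR-142-3p; a fixed block for run day could be fitted in hearts only.

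Marker microRNAs of other cell types changed beside miR-685, and their part in its differences was not tested. In hearts 32.4% of 238 assays were called in either direction and 17.2% were called higher. These 77 calls became 34 scaled to MammU6, 42 without syngeneic pool 2 and 2 with run day as fixed blocks, so the list counts that follow depend on the setting. Both pan-leukocyte assays (miR-142-3p and miR-142-5p) rose, with a median of 1.33 log2 units, whereas scaled to MammU6 neither was called (median 1.21). Under the other scalings and left-out pools only 1 was called, except scaled to snoRNA202 or without allogeneic pool 2, which kept both assays. Their summed level, on a log2 scale, was 6.75 to 7.00 in allogeneic hearts, 4.83 to 5.43 in syngeneic hearts and 2.63 in normal hearts. The order of these sums was that of miR-685, with a smaller span. Of 6 assays linked to myeloid cells and macrophage activation, only miR-147, which Toll-like receptor signals induce in macrophages, was called higher (3.69 ± 0.44). The list's median was 0.62, and its sum was 6.95 to 7.89 in allogeneic hearts, 6.74 to 7.40 in syngeneic hearts and 5.65 in normal hearts. miR-155 of that list, made in activated lymphocytes and macrophages, stood at 1.10 ± 0.35 and was not called. miR-147 and miR-155 were also picked for following miR-685 on these arrays, so their values, here and in GIL, are descriptions.

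Heart tissue assays went the other way. Of all 238 assays 36 were called lower. Of 6 cardiac muscle assays 5 fell in allogeneic hearts (median -1.60 log2 units), with sums of 9.13 to 9.47 in allogeneic, 10.54 to 11.27 in syngeneic and 12.18 in normal hearts. The count was 4 scaled to MammU6, snoRNA202, or snoRNA135 with snoRNA202, 6 scaled to the median, and 4 or 5 without any 1 pool. Both endothelial assays fell (median -1.47, sums 6.78 to 7.39 in allogeneic, 8.55 to 9.0 in syngeneic and 10.03 in normal hearts), though scaled to MammU6 only 1 was called. Both tested fibroblast assays of 3 fell (median -1.89, sums 2.06 to 2.84 in allogeneic grafts, 3.91 to 4.67 in syngeneic grafts and 3.41 in normal hearts). Only 1 was called scaled to MammU6 or snoRNA202, or without any 1 pool other than allogeneic pool 2. Of the 2 erythroid assays miR-451 rose and miR-486 stood at -0.16, with sums of 3.58 to 4.83 in allogeneic, -0.74 to 1.66 in syngeneic and 3.01 in normal hearts. In the erythroid sum the 1 array of normal hearts lay above syngeneic grafts, and miR-685 was not detected on that array. Whether erythroid content bears on miR-685 was not tested. Of the 2 mature lymphocyte assays miR-342-3p stood at 1.30, a call (limma adjusted p = 0.0431) that was lost under 5 of 6 other scalings, and miR-150 stood at -0.49 (sums 6.21 to 6.45 in allogeneic, 6.17 to 6.48 in syngeneic and 6.41 in normal hearts). The median of all 238 assays was 0.02.

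In GIL 36.3% of 201 assays were called in either direction, and their median difference was -0.24 log2 units. Scaled to the control RNAs MammU6 and snoRNA202 that median lay above 0, at 0.58 and 0.65. With snoRNA202 the split of 25 higher and 48 lower became 38 and 10. U87 and Y1, controls that stood higher in allogeneic than in syngeneic GIL (0.11 and 0.33), were not used for scaling. Without syngeneic pool 2 the 73 calls were 39. The pan-leukocyte sum was 4.98 to 5.57 in allogeneic GIL, 3.18 to 4.15 in syngeneic GIL and 7.05 in PBMC, where miR-685 was lowest of the 3. miR-142-3p was called, though not without syngeneic pool 2 or 3, and miR-142-5p stood at 1.00 (limma adjusted p = 0.0916). Of the myeloid list 5 of 6 members were tested, and miR-155 (1.98 ± 0.26) rose, as did miR-146a (1.16), while miR-511 was detected on no GIL array (median 0.50, sums 4.72 to 5.48 in allogeneic GIL, 4.31 to 5.46 in syngeneic GIL and 6.56 in PBMC). Neither mature lymphocyte assay was called (median 0.55, sums 4.59 to 5.47 in allogeneic GIL, 4.43 to 4.76 in syngeneic GIL and 7.35 in PBMC).

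The GIL preparations also held heart microRNAs. miR-1 and miR-133a, which muscle makes, were detected on 6 of 6 GIL arrays and also in PBMC. miR-208, encoded in a heart myosin gene, was detected on 2 of 3 allogeneic and 2 of 3 syngeneic GIL arrays and not in PBMC, and miR-499, encoded in another myosin gene, on 2 of 3 allogeneic and 1 of 3 syngeneic GIL arrays and not in PBMC. The cardiac muscle sum was 5.18 to 6.45 in allogeneic GIL, 3.78 to 4.47 in syngeneic GIL and -3.67 in PBMC, and miR-133a and miR-133b, 2 of its 3 tested members, rose (median 1.66, with none called scaled to snoRNA135 with snoRNA202 or without syngeneic pool 1 or 2); miR-208b was detected on no GIL array. All 3 fibroblast assays fell (median -1.38, sums 1.91 to 3.13 in allogeneic GIL, 4.43 to 4.71 in syngeneic GIL and -4.84 in PBMC). Only 1 was called scaled to MammU6 or snoRNA202 (medians -0.56 and -0.49), to snoRNA135 with snoRNA202, or by quantiles. The count was also 1 without allogeneic pool 1 or without any 1 syngeneic pool, and 2 scaled to the median. The endothelial median was -0.65, or 0.17 scaled to MammU6 and 0.24 to snoRNA202. On the reference scale 1 of 2 endothelial assays was called lower, and none was with those scalings or without any 1 pool (sums 4.55 to 5.32 in allogeneic GIL, 5.79 to 6.42 in syngeneic GIL and 0.28 in PBMC). Of the erythroid assays miR-451 was not called (0.67 ± 0.33) and miR-486 was detected on no GIL array (sums -2.39 to -1.81 in allogeneic GIL, -3.17 to -2.19 in syngeneic GIL and -0.39 in PBMC). Markers of heart tissue were thus present in preparations labelled as lymphocytes.

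**Figure D3:**
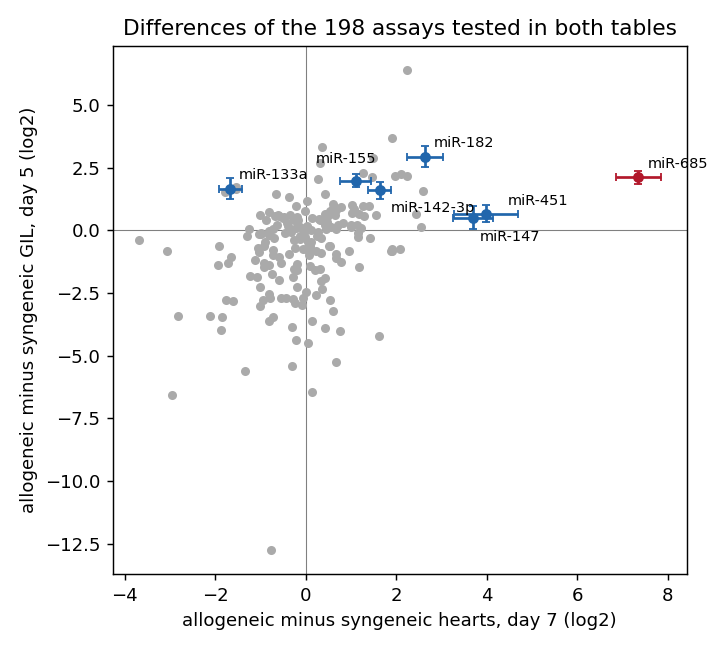
Difference between allogeneic and syngeneic samples (log2) in hearts on day 7 (horizontal) and in GIL on day 5 (vertical) for the 198 assays tested in both tables, with SE bars on the named ones. miR-685 lies at 7.35 and 2.12, to the right of all other points; miR-142-3p lies at 1.64 and 1.60, and miR-133a at -1.67 and 1.67.

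Both kinds of GIL had more miR-685 than PBMC, whose Ct was 27.0 and whose level was -3.80. Allogeneic GIL stood 6.30 ± 0.36 log2 units above PBMC (79.0-fold, limma adjusted p = 8.99e-05) and syngeneic GIL 4.18 ± 0.37 (18.1-fold, limma adjusted p = 4.09e-04). PBMC were 1 array, so both p-values assume that PBMC vary like the GIL pools, and PBMC's own spread was not measured. In these comparisons 22.2% of 212 and 28.8% of 229 assays were called higher, and miR-685 was 24th and 52nd by size. Without allogeneic pool 3 the allogeneic difference was 6.27. Scaled to miR-142-3p they were 8.15 and 7.63. The 2 comparisons share the PBMC array, which was run on a day of its own. Allogeneic and syngeneic GIL came from grafts and PBMC from blood. Tissue, transplantation and run day cannot be told apart here.

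To set the groups of both tables in 1 order, levels were also taken relative to the microRNA assays detected on all 14 arrays (133). miR-685 was then highest in allogeneic hearts (4.63 ± 0.86, SD, n = 3), followed by allogeneic GIL (2.48 ± 0.08), syngeneic GIL (0.34 ± 0.36), syngeneic hearts (-2.58 ± 0.50), PBMC (-3.84, 1 array) and normal hearts (at most -12.67, 1 array, not detected). No neighbours in this order overlapped. The nearest were syngeneic hearts and PBMC, 0.71 log2 units apart at their closest values against a pooled SD of 0.53, and scaled to MammU6 the PBMC value (-12.72) lay inside the range of syngeneic hearts (-13.02 to -10.78). That pair is therefore not ordered by these data.

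GIL lay on different sides of whole hearts in the 2 kinds of graft. In rejecting grafts the GIL of day 5 stood 2.15 log2 units below the hearts of day 7, whereas in syngeneic grafts GIL stood 2.92 above hearts. Scaled to MammU6 these differences were -2.02 and 2.27, and scaled to snoRNA202 -1.80 and 2.69. The tables were run separately, on other days after surgery and on other kinds of preparation, so no test was made across them.

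**Figure D4:**
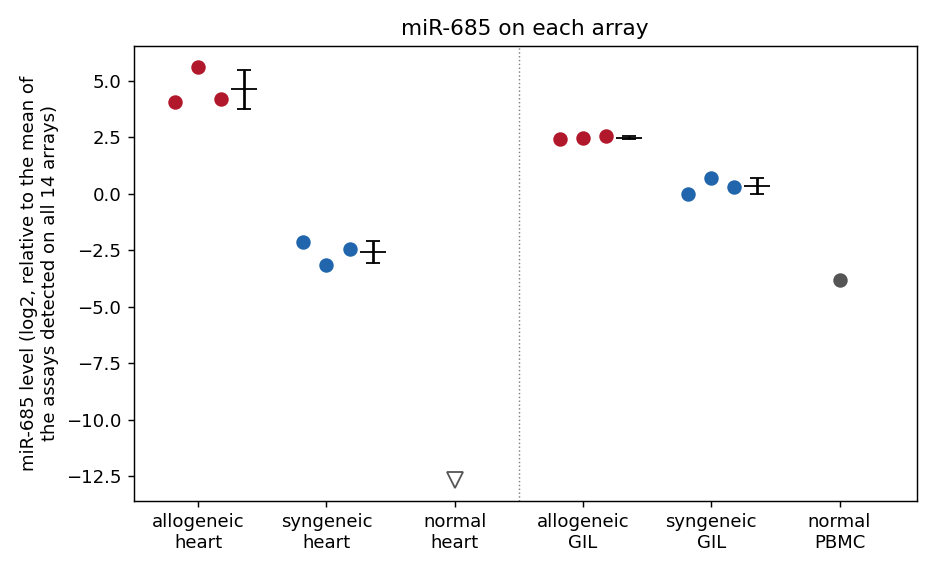
Level of miR-685 (log2, relative to the mean of the assays detected on all 14 arrays) on each array, with the mean and SD beside groups of 3; the open triangle marks normal hearts, not detected and drawn at the limit. Allogeneic hearts lie at 4.06 to 5.63, syngeneic hearts at -3.13 to -2.16, allogeneic GIL at 2.4 to 2.56 and syngeneic GIL at 0.01 to 0.72.

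Of 193 other assays detected on at least 5 arrays of each table, the 5 nearest to miR-685 were those with the highest lower one of 2 Pearson correlations, over the 7 heart arrays and over the 7 GIL and PBMC arrays. The median of that lower correlation over the 193 was -0.64, and it exceeded 0.8 for 4 assays. Points of 1 table share their groups and reference, so these are descriptions. miR-182, which is induced in activated T helper cells, had 0.98 in hearts and 0.94 in GIL and PBMC, and 0.94 and 0.93 over the grafts alone. miR-183, made from the same cluster, had 0.95 and 0.92 (grafts alone 0.85 and 0.84), and miR-147 had 0.98 and 0.89 (0.96 and 0.34). miR-155 had 0.87 and 0.84 (0.73 and 0.95), and miR-362-3p 0.89 and 0.74 (0.93 and 0.24). For miR-147 and miR-362-3p the correlation in the second table was thus much lower without PBMC.

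Like miR-685, miR-183 and miR-147 were not detected in normal hearts, but unlike it they were not detected in PBMC either. Since the 5 were chosen on these arrays, their differences between allogeneic and syngeneic samples are descriptions. In GIL the difference was 2.95 ± 0.42 log2 units for miR-182 and 1.98 ± 0.26 for miR-155, against 0.66 ± 0.24 for miR-183, 0.50 ± 0.46 for miR-147 and 0.23 ± 0.29 for miR-362-3p. In hearts it was 2.64 ± 0.40 for miR-182, 2.45 ± 0.48 for miR-183, 3.69 ± 0.44 for miR-147, 1.10 ± 0.35 for miR-155 and 1.13 ± 0.28 for miR-362-3p, each below the 7.35 of miR-685.

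**Figure D5:**
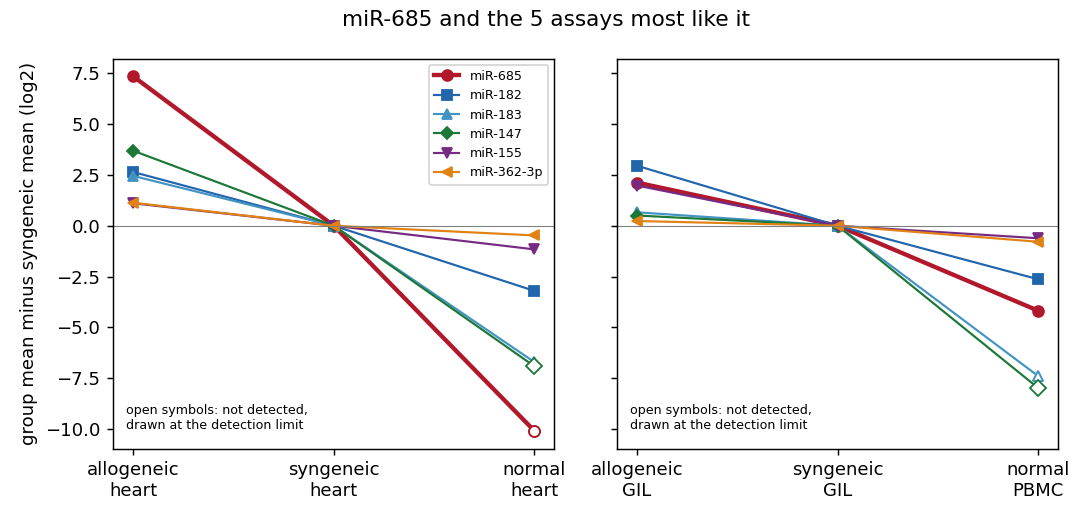
Group means of miR-685 and the 5 assays most like it (log2, relative to the syngeneic mean of the same table, which is at 0), hearts on the left and GIL with PBMC on the right. miR-685 is at 7.35 in allogeneic hearts and 2.12 in allogeneic GIL; open symbols were not detected and are drawn at the limit, and in normal hearts miR-183 lies beneath miR-147.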

How the data were processed

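Both tables hold the wells of 7 arrays each. Threshold cycles were exported by the authors from SDS 2.4, per the file headers. Baseline and threshold settings are not given in the sources used here. The deposited delta Ct, on an inverted log2 scale, equals the Ct minus that of snoRNA202 with undetermined wells at 40, and the relative quantity in the authors' deposited table is a ratio to the normal array run with it. 1 well under a different array name (not miR-685) was left out.

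From the Ct, levels were computed as the report describes and tested with limma 3.58.1 under R 4.3.3 (two-sided moderated test from lmFit with eBayes, all 3 groups of a table in 1 fit). The test covered assays detected on every array of at least 1 group compared, with Benjamini-Hochberg adjustment over all of them and calls at 0.05. SE is the moderated standard error. The labels do not say whether pools of 1 group shared animals, surgeries or days, or whether replicate numbers pair the samples. The main fits did not pair them. The p-values measure only the spread between these pools, and their number limits precision.

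miR-685, the marker lists and the tests were chosen with earlier results of these data known. Other assays were named by rule, namely the 5 most alike over both tables, the 3 next by heart rise, the controls and the marker lists. Other scalings, detection limits, filters, blocks and left-out pools were tried, and those of the marker lists and of miR-142-3p were added after the data were seen.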

Additional observations from a re-analysis of the deposited data

How the results depend on the processing

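The order of the 6 group means was the same under all 19 alternatives tried for it. The miR-685 difference between allogeneic and syngeneic hearts moved by more than the spread between pools under 1 of 21 alternatives, scaling to miR-142-3p (5.71), and lay at 6.84 to 7.61 with 1 pool left out. The GIL difference kept its direction under 20 of 20 and its call under 19, the exception being miR-142-3p (0.53). With 1 pool left out it was 1.96 to 2.31. Several of these alternatives cannot move the heart or the GIL difference. They are the other detection limits, no filter, marked wells left out, only the 2 groups and the replicate block. In GIL a random block for run day cannot remove a shift between days either. The differences from the lone PBMC array were 5.95 to 8.15 for allogeneic and 3.09 to 7.63 for syngeneic GIL over 18 alternatives, several of which cannot move them. The bounds against normal hearts were 14.44 and 7.09 at a limit of Ct 32, 22.44 and 15.09 with undetermined wells at Ct 40, 13.21 and 7.50 scaled to miR-142-3p, and 18.18 by quantiles for allogeneic hearts.

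The counts of calls over the whole table depended on the processing. In hearts 77 calls (41 higher, 36 lower) became 34 scaled to MammU6, 179 to miR-142-3p (6 and 173), 42 without the detection filter, 46 with the replicate block and 2 when run day was a fixed block, which leaves few residual degrees of freedom. They ranged from 42 to 81 with 1 pool left out (42 without syngeneic pool 2, 45 without syngeneic pool 3, 43 without allogeneic pool 1). The split was 42 to 23 scaled to snoRNA202, 24 to 56 to the median and 36 to 51 to the assays of all 14 arrays. In GIL 73 calls (25 and 48) became 31 scaled to snoRNA135 with snoRNA202 (21 and 10), 48 to snoRNA202 (38 and 10), 130 to miR-142-3p (3 and 127) and 35 without the filter, and 39 to 73 with 1 pool left out (46, 39 and 43 without syngeneic pools 1, 2 and 3). The split was 34 to 20 scaled to MammU6, 36 to 39 to the median and 34 to 31 by quantiles. The cause was not tested.

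Same-numbered pools deviated together with correlations of -0.04, -0.29 and 0.12 in hearts and 0.19, 0.23 and -0.16 in GIL. With 3 pools in each group these values cannot settle whether the numbers pair them. Not every pool correlated best with its own number. With the replicate block the GIL difference of miR-685 was 2.12 (limma adjusted p = 0.0305) and its heart difference 7.35. Normal arrays have no partner, so their differences were not fitted with the block. Only marked wells with a Ct were left out in that alternative, since undetermined wells stand for the limit.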
